A study of Arabidopsis thaliana and Lotus japonicus with 44 samples.

Results

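Strigolactones are hormones made from carotenoids that restrain shoot branching, and roots of many plants release them into the soil, where they stimulate arbuscular mycorrhizal fungi (AMF). This text describes 9 Arabidopsis genes of strigolactone synthesis and signalling, chosen by their gene identifiers out of 36796 genes in the count tables. Their transcripts in roots were compared across genotypes, fungal treatment and growth medium. Of the 9 genes, 4 reached at least 10 counts in at least 1 library and could be tested (*LBO*, *D14*, *SMXL6* and *SMXL7*), whereas *D27*, *MAX3*, *MAX4*, *MAX1* and *SMXL8* stayed under that minimum in every library.

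The series holds 44 RNA-seq samples, of which the 30 from Arabidopsis are used here and the 14 from Lotus are not. Each library came from the pooled roots of 5 seedlings of the same plate, at 6 weeks, so that p-values measure the spread between such pools. AMF treatment means that germinated spores of *Rhizophagus irregularis* were put on the roots 48 h before collection, and mock means sterile water. On 1/2 MS medium there were 4 libraries each of wild-type Col-0 +AMF, Col-0 -AMF, line 308 +AMF and line 308 -AMF, and 3 each of line 310 +AMF and line 310 -AMF. On the low-nutrient medium LN, which had 0.5% of the phosphorus, 1% of the nitrogen and 1% of the potassium of 1/2 MS, Col-0 had 5 libraries and line 308 had 3, every one of them +AMF. An effect of LN on its own, without AMF, therefore cannot be told apart from an effect of LN in the presence of the fungus. Lines 308 and 310 are separate homozygous lines that express IPD3Min, the DNA-binding domain of the *Medicago truncatula* symbiosis regulator IPD3, under the *UBIQUITIN10* promoter together with a *35S:mCherry* marker that Col-0 lacks. Line 310 was not grown on LN.

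The pathway runs from the plastid to the nucleus. D27, a carotenoid isomerase, and the carotenoid cleavage dioxygenases MAX3 (CCD7) and MAX4 (CCD8) make carlactone, which the cytochrome P450 MAX1 oxidizes and the dioxygenase LBO (lateral branching oxidoreductase) modifies further. The hydrolase D14 binds strigolactone and, with the F-box protein MAX2, marks the repressors SMXL6, SMXL7 and SMXL8 for degradation. In many species, strigolactone synthesis and release are known to rise when phosphate is short.

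Total counts ran from 13125046 to 14790061 per library. All 5 root markers examined (*CASP1*, *SCR*, *SHR*, *EXPA7* and *LRX1*) were counted in every group, with a summed level of 409 to 775 CPM (counts scaled to a common library total with TMM factors). Of 5 photosynthesis markers of shoot cells, *RBCS1A* and *LHCA1* stayed under 10 counts in every library, as did the xylem marker *XCP1* and the phloem marker *APL*. The other 3 photosynthesis markers were counted in every group, with a summed level of 62.5 to 271 CPM. The part of the authors' counting rule in the 4 low markers was not tested. In a principal component analysis of the 8 LN libraries, Col-0 replicate 5 lay at 18.5 on the first component, between the other Col-0 libraries (-38.9 to -28.3) and line 308 (33.4 to 46.9). The names of 3 LN libraries (line 308 replicate 3, Col-0 replicates 1 and 3) lack a prefix that the other 27 Arabidopsis libraries carry, and its meaning is not given in the sources used here.

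What could be counted differed greatly between the 9 genes. The authors counted read pairs per annotated transcript and dropped pairs that overlapped more than 1 transcript. A gene with several transcripts was therefore counted only through the exon bases that belong to 1 of them. These bases are called countable, although a pair that also reached shared bases was dropped. *LBO* (AT3G21420, chromosome 3, 7541384 to 7543560, plus strand) has 1 annotated transcript, and all of its 1629 exon bases were countable. *D14* (AT3G03990, chromosome 3, 1033579 to 1035237, plus strand) also has 1 transcript, of 1659 bases. The repressor gene *SMXL7* (AT2G29970, chromosome 2, 12776208 to 12780069, plus strand) has 1 transcript of 3687 bases. *SMXL6* (AT1G07200, chromosome 1, 2208477 to 2212718, minus strand) has 2, with 2018 of 4065 bases countable, and its transcript AT1G07200.2 held 12202 of its 12225 counts.

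The other 5 genes have 2 or 3 transcripts that share most of their exon bases. *D27* (AT1G03055, chromosome 1, 710018 to 711857, minus strand) had 198 of 1126 exon bases countable and 9 counts over all 30 libraries. *MAX3* (AT2G44990, chromosome 2, 18558885 to 18561621, plus strand) had 238 of 2125 bases and 7 counts. *MAX4* (AT4G32810, chromosome 4, 15828228 to 15831492, plus strand) had 78 of 2104 bases and 1 count, in line 308 LN replicate 2. These carry out the first steps of synthesis, up to carlactone. *MAX1* (AT2G26170, chromosome 2, 11140809 to 11143360, plus strand) had 127 of 1816 bases and 12 counts. *SMXL8* (AT2G40130, chromosome 2, 16765709 to 16769279, plus strand) had 231 of 3259 bases and 3 counts.

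The highest count of these 5 genes in any library was 2, and 120 of their 150 library values were 0. A floor of 3 counts corresponds to 0.206 to 0.242 CPM per library and covers counting error only, so no level or fold change is given for them. Low expression and the counting rule cannot be told apart here. All 9 *D27* counts fell on AT1G03055.2, whose longest countable stretch, of 153 bases, is a whole intron of the other transcript. The same holds for *MAX4*, whose single countable stretch is shown because it is the only part of the gene that the counts could read.

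*MAX4* stretch (TAIR10, chr4:15830882-15830999, plus strand, capitals mark the 78 bases held by AT4G32810.2 alone, with 20 shared exon bases on each side): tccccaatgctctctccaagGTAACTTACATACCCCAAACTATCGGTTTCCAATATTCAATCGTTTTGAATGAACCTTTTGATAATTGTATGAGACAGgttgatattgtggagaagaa

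The other annotated transcript, AT4G32810.1, in which these bases are an intron, has 0 bases of its own, so that no pair within it could be counted. Of all Arabidopsis genes, 30.1% have several transcripts, and they held 2.53% to 2.99% of the counts of a library. Among them 34.4% reached the minimum of 10 counts, against 49.5% of the genes with 1 transcript.

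**Figure D1:**
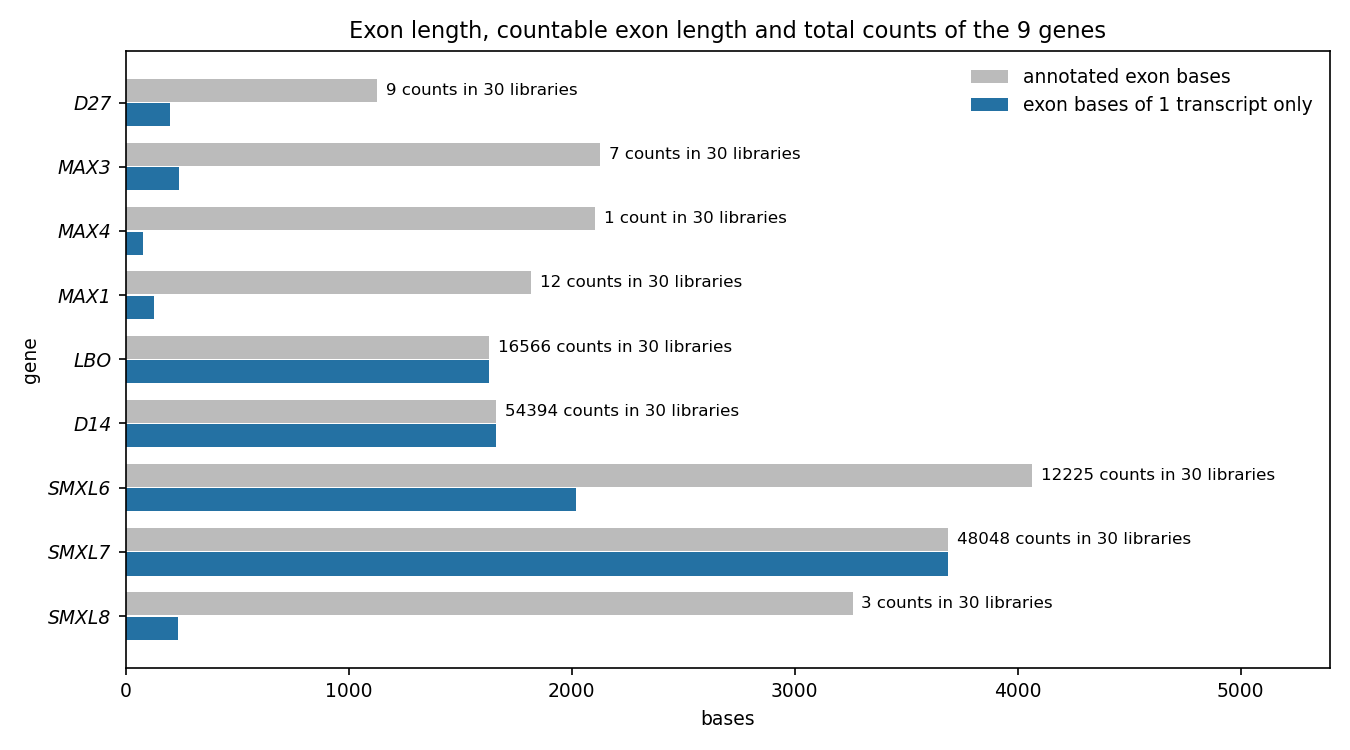
Annotated exon bases (grey bars) and exon bases that belong to 1 transcript only (blue bars) of the 9 genes, in bases, with the total counts over the 30 Arabidopsis libraries beside each gene. The 5 genes with 78 to 238 countable bases have 1 to 12 counts, and the 4 others have 12225 to 54394.

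Over the 8 groups together, all 4 of the 4 measured genes differed (edgeR's quasi-likelihood test, adjusted p = 1.71e-18 for *LBO*, 1.85e-05 for *SMXL6*, 0.00654 for *SMXL7* and 0.0102 for *D14*), where 58.2% of the 16540 tested genes did. With the common dispersion of the likelihood-ratio test, *D14* (adjusted p = 0.112) and *SMXL7* (0.261) no longer passed, and 2 of the 4 remained. These genes entered the test through their counts, so the 4 do not stand for all 9 members.

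Per kilobase of countable exon, the receptor gene was the most abundant of the 4. *SMXL6*, with 2018 of 4065 exon bases countable, also lost the pairs that reached shared bases, so its level can be understated here. In Col-0 +AMF on 1/2 MS, *D14* had 81.5 ± 10.1 CPM per kilobase, *SMXL7* 33.0 ± 1.11, *SMXL6* 17.5 ± 2.00 and *LBO* 11.5 ± 0.905 (SD, n = 4). In Col-0 on LN, *D14* was still highest at 94.2 ± 6.07 CPM per kilobase, but *LBO* followed at 67.1 ± 5.87, above *SMXL7* at 28.9 ± 2.61 and *SMXL6* at 11.6 ± 2.47 (SD, n = 5).

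*LBO*, the enzyme gene of the last step, rose on LN in both genotypes, 5.85-fold in Col-0 and 3.70-fold in line 308. In Col-0 on LN its level was 115, 111, 97.1, 121 and 103 CPM in the 5 libraries, and in Col-0 +AMF on 1/2 MS it was 20.8, 18.1, 17.5 and 18.2 CPM. In line 308 on LN it was 63.8, 60.96 and 91.2 CPM, and in line 308 +AMF on 1/2 MS it was 22.3, 19.7, 18.3 and 17.7 CPM. The LN libraries lay above every 1/2 MS library in both genotypes, and line 308 replicate 3 was the highest of its group. The log2 fold change in Col-0 was 2.55 (SE 0.09, 95% interval 2.35 to 2.75, edgeR's quasi-likelihood test, adjusted p = 5.57e-09). In line 308 it was 1.89 (SE 0.15, 95% interval 1.56 to 2.21, adjusted p = 3.02e-05). The increase passed the threshold without any single library and under every other alternative, with log2 fold changes from 2.50 to 2.61 in Col-0 and from 1.68 to 1.99 in line 308.

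In bulk roots, more cells that express a gene and more RNA per cell cannot be told apart. In Col-0, 2 of the 4 measured genes were called on LN, 1 higher and 1 lower, where 35.9% of all tested genes were (19.4% higher and 16.5% lower). In line 308 it was 3 of 4, 1 higher and 2 lower, where 31.5% were (16.3% higher and 15.2% lower). So many genes moved between the media that the number of members called says little about the pathway, and the results rest on the size and direction of each gene.

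The repressor gene *SMXL6* moved the other way. Its level in Col-0 on LN was 29.6, 21.7, 23.6, 25.6 and 16.1 CPM, against 31.7, 32.6, 40.3 and 37.1 CPM in Col-0 +AMF on 1/2 MS. In line 308 on LN it was 15.5, 15.5 and 14.9 CPM, against 35.9, 35.7, 40.9 and 29.4 CPM on 1/2 MS. Among the +AMF libraries, the media did not overlap in either genotype. Mock-treated Col-0 on 1/2 MS, at 24.4 to 35.7 CPM, did overlap with Col-0 on LN. Mock-treated line 308, at 26.0 to 33.3 CPM, did not overlap with line 308 on LN. The lowest Col-0 library on LN was replicate 5, the one that lay closer to line 308 on the first component. *SMXL6* fell by 0.60 on the log2 scale in Col-0 (SE 0.15, 95% interval -0.94 to -0.27, adjusted p = 0.00863) and by 1.21 in line 308 (SE 0.12, 95% interval -1.48 to -0.95, adjusted p = 0.000122). Without Col-0 LN replicate 5 the change in Col-0 was -0.50, and with the form of the library name in the model it was -0.74, both past the threshold.

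**Figure D2:**
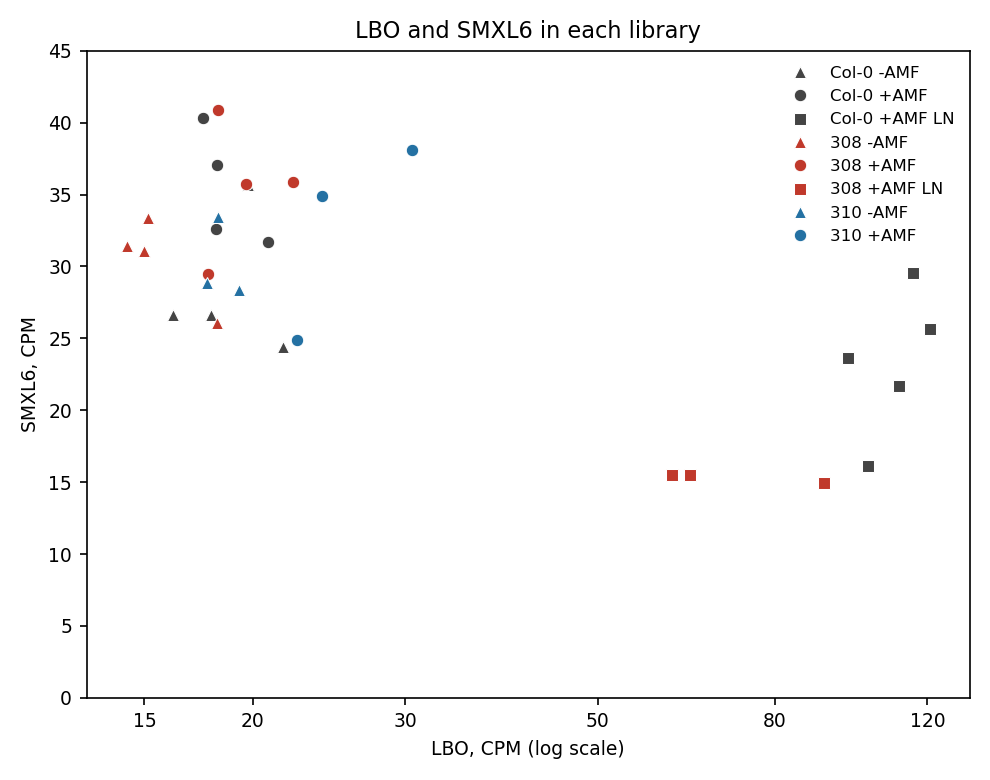
Level of *LBO* (x axis, CPM, log scale) and of *SMXL6* (y axis, CPM) in each of the 30 libraries, with genotype by colour and treatment and medium by symbol. The 8 LN libraries (squares) stand at 60.96 to 121 CPM of *LBO* and 14.9 to 29.6 CPM of *SMXL6*. Every 1/2 MS library lies at 14.3 to 30.5 CPM of *LBO* and 24.4 to 40.9 CPM of *SMXL6*. The media are thus apart in *LBO* and overlap in *SMXL6*.

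*SMXL7*, the paralogue of *SMXL6* with the higher measured level, changed less. In line 308 on LN it had 94.95, 101.4 and 93.8 CPM, against 107, 137, 119.9 and 146 CPM on 1/2 MS, with no overlap. It fell by 0.40 on the log2 scale (SE 0.11, 95% interval -0.64 to -0.16, adjusted p = 0.0172). The call was lost without line 308 LN replicate 1 (adjusted p = 0.0536), without line 308 LN replicate 3 (0.0541) and with the form of the library name in the model (0.0546). In Col-0 on LN, *SMXL7* had 115, 97.1, 103, 119 and 99.8 CPM, against 122, 116, 125 and 124 CPM on 1/2 MS. The groups overlapped, and its change of -0.19 on the log2 scale (SE 0.08) had an adjusted p of 0.0767. Without TMM scaling the adjusted p in Col-0 was 0.0284, and without Col-0 LN replicate 4 it was 0.0429.

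*D14*, the receptor gene, did not pass the threshold for the medium in either genotype. It had 152, 143, 168, 154 and 164 CPM in Col-0 on LN, against 121, 122, 155 and 143 CPM on 1/2 MS. The log2 fold change was 0.21 (SE 0.09, 95% interval 0.01 to 0.41, adjusted p = 0.094), and the groups overlapped. Without Col-0 +AMF replicate 3, the highest of the 1/2 MS libraries, it was 0.28 with an adjusted p of 0.035. In line 308, *D14* had 137, 107 and 146 CPM on LN and 126, 117, 136 and 115 CPM on 1/2 MS. The groups overlapped, with a change of 0.08 on the log2 scale (SE 0.11, 95% interval -0.17 to 0.32, adjusted p = 0.648).

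The ratio of *D14* to *SMXL6* in CPM per kilobase was higher on LN. It lay between 3.98 and 5.84 in the 22 libraries from 1/2 MS, between 6.24 and 12.4 in Col-0 on LN and between 8.39 and 11.9 in line 308 on LN. The highest of the Col-0 values was that of replicate 5. This ratio was formed after the levels had been seen and is given as a description. Its size also depends on how fully *SMXL6* could be counted.

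**Figure D3:**
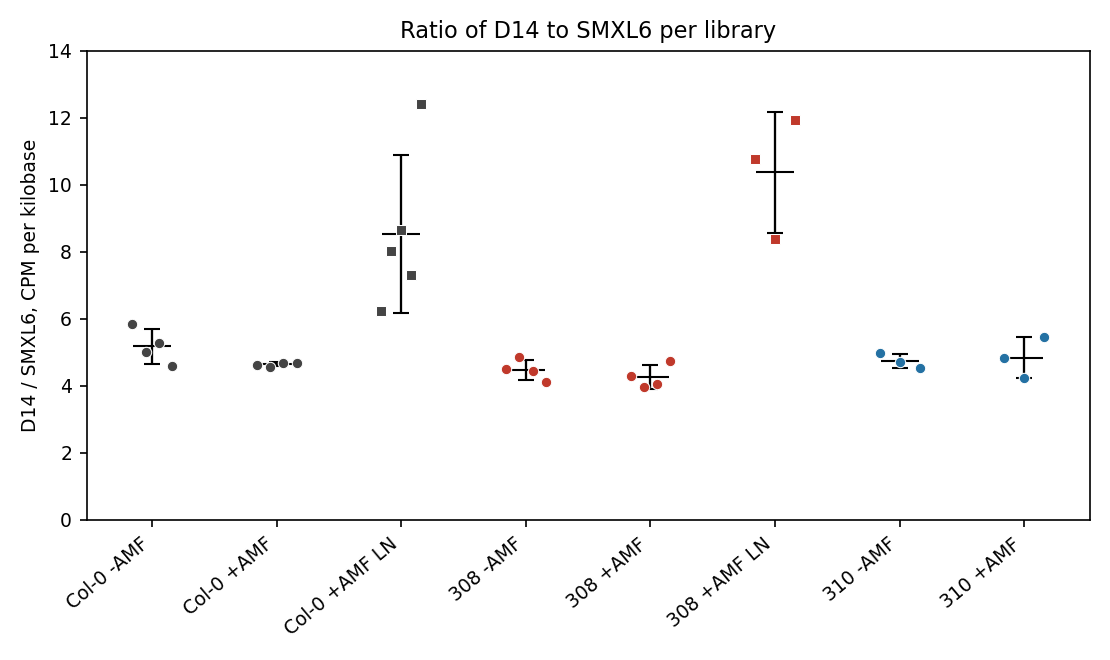
Ratio of *D14* to *SMXL6* (CPM per kilobase of countable exon) in each library of the 8 groups, with the mean and SD as bars. All 8 LN libraries (squares, 6.24 to 12.4) lie above the 22 libraries from 1/2 MS (circles, at most 5.84).

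The medium itself was visible in genes of known nutrient response. Of 11 phosphate starvation markers, 10 could be tested, and all 10 rose on LN in Col-0 and 8 of 10 in line 308, with a median log2 fold change of 5.04 and 4.53. *IPS1*, a non-coding RNA induced by phosphate shortage, had 482 CPM in Col-0 on LN and 0.250 CPM on 1/2 MS. The nitrate markers rose in 5 of 5 cases in Col-0 and 4 of 5 in line 308, which is not read here as a sign of nitrogen shortage. Of the markers of other cell types, the xylem gene *IRX3*, a cellulose synthase subunit, fell by 0.62 on the log2 scale in Col-0 (adjusted p = 0.00607) and by 1.29 in line 308 (adjusted p = 0.00024). The other counted xylem marker of 3 listed, *VND7*, fell by 2.86 in line 308 (adjusted p = 0.00157). It did not pass the threshold in Col-0, where *IRX3* was the only 1 of the 2 called. The summed level of the xylem markers was 37.7 to 63.7 CPM in Col-0 on LN, against 64.9 to 91.3 CPM on 1/2 MS, and 28.7 to 43.1 CPM in line 308 on LN, against 74.1 to 98.4 CPM. The summed photosynthesis markers were also lower on LN, at 89.2 to 121 CPM against 224 to 270.05 CPM in Col-0 and 62.5 to 82.3 CPM against 137 to 159 CPM in line 308. Of the 5 root markers, 3 rose in Col-0 and 2 in line 308, where 19.4% and 16.3% of all tested genes rose. The root hair genes *EXPA7* and *LRX1* rose in both genotypes (*LRX1* by 1.73 in Col-0 and 1.05 in line 308 on the log2 scale), and *SHR*, a stele transcription factor gene, rose by 0.31 in Col-0 (adjusted p = 0.0177). Of the 2 counted phloem markers, 0 passed the test. The part of these shifts in the changes of *LBO* and *SMXL6* was not tested.

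Line 308 and Col-0 differed on LN in *LBO*. The 3 libraries of line 308 (60.96 to 91.2 CPM) lay under the 5 of Col-0 (97.1 to 121 CPM), a fall of 0.60 on the log2 scale (SE 0.14, 95% interval -0.90 to -0.30, adjusted p = 0.0271). It was 1 of 4 measured genes called, where 8.61% of all tested genes were (3.02% higher and 5.59% lower in line 308). The difference kept its direction in every fit, from -0.81 to -0.50, but its adjusted p exceeded 0.05 without line 308 LN replicate 1 (0.095) or 2 (0.0807) and without Col-0 LN replicate 1 (0.0599), 2 (0.0637) or 4 (0.0668). For *SMXL6* the log2 fold change was -0.61 (SE 0.17, 95% interval -0.98 to -0.23, adjusted p = 0.0526) and no overlap between the groups. It passed the threshold with DESeq2 (adjusted p = 0.0176), with no filter on low counts (0.045), and without Col-0 LN replicate 5 (0.00234). *D14* (log2 fold change -0.26, adjusted p = 0.143) and *SMXL7* (-0.14, adjusted p = 0.33) did not pass.

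The response of *LBO* to the medium was smaller in line 308 than in Col-0. The difference of the log2 fold changes was -0.66 (SE 0.17, 95% interval -1.03 to -0.30, interaction term, adjusted p = 0.0353), and *LBO* was 1 of 4 measured genes called, where 5.44% of all tested genes were (2.08% above and 3.36% below 0). It ranged from -0.87 to -0.56 when each library was left out, and the adjusted p stayed under 0.05 without line 308 +AMF replicate 4, Col-0 +AMF replicate 1, line 308 LN replicate 3 or Col-0 LN replicates 3 or 5, whereas without any of the other 11 libraries it lay between 0.0548 and 0.0806. In the same interaction test, 1 of 10 phosphate starvation markers was called, with the smaller response in line 308 (*PHT1;1*, a phosphate transporter gene, -1.15), and the median of the 10 was -0.65. Of the nitrate markers 2 of 5 were called, both lower (*NRT2.1*, a nitrate transporter gene, -2.61, adjusted p = 0.0281, and *NIR1*, nitrite reductase, -0.69, adjusted p = 0.048), with a median of -0.69. In the direct comparison of the genotypes on LN, the phosphate starvation markers had 5 of 10 lower and 0 higher in line 308, among them *PAP17*, a phosphatase gene, at 671 against 1072 CPM (adjusted p = 0.0118). Their summed level was 5681 to 8917 CPM in line 308 on LN and 9851 to 13308 CPM in Col-0 on LN. For *SMXL6* the difference of the response was -0.61 (SE 0.21, adjusted p = 0.0941), for *SMXL7* -0.21 (SE 0.13, adjusted p = 0.343) and for *D14* -0.13 (SE 0.15, adjusted p = 0.622). The *SMXL6* difference passed without Col-0 LN replicate 5 (-0.72, adjusted p = 0.00966).

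**Figure D4:**
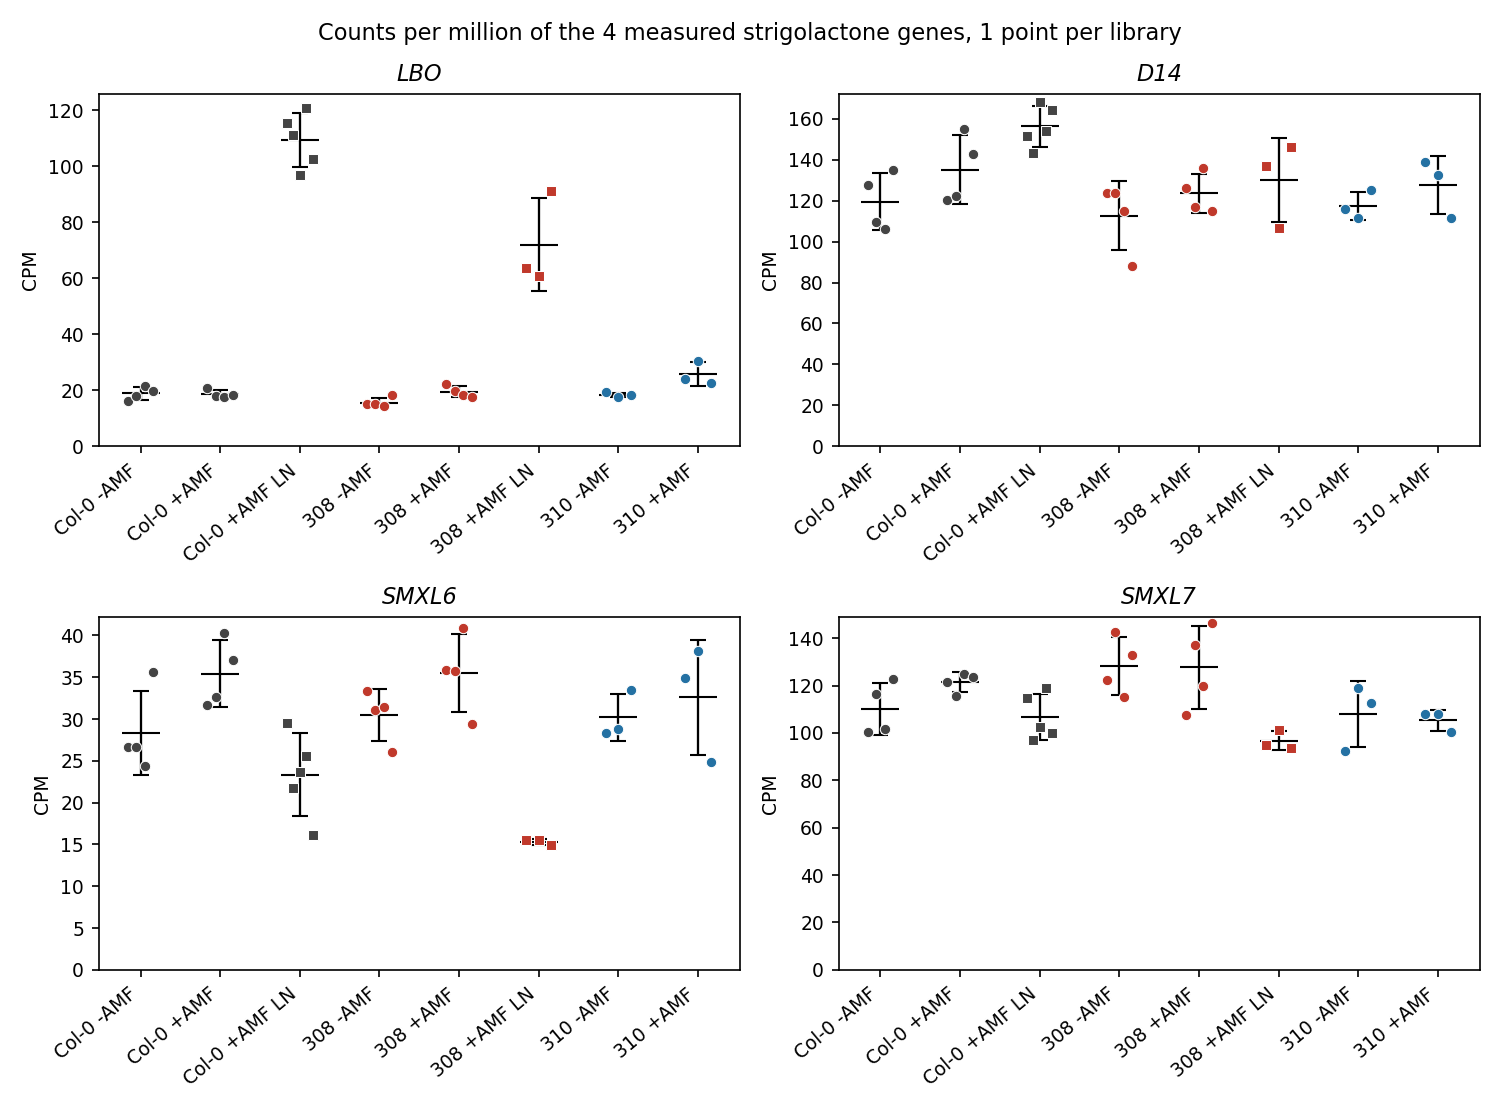
Level of *LBO*, *D14*, *SMXL6* and *SMXL7* (CPM, y axes from 0) in the 30 libraries of the 8 groups, with 1 point per library and the mean ± SD as bars. *LBO* stands at 109 ± 9.57 CPM in Col-0 on LN and 72.0 ± 16.7 in line 308 on LN, against group means of 15.7 to 25.7 CPM on 1/2 MS.

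On 1/2 MS, AMF moved none of the 4 measured genes past the threshold in any genotype. In Col-0, 0 of 4 were called, where 0.877% of all tested genes were, and 1 had an unadjusted p under 0.05. That gene was *SMXL6*, with 31.7, 32.6, 40.3 and 37.1 CPM under AMF and 26.6, 26.6, 24.4 and 35.7 CPM under mock treatment. The groups overlapped through mock replicate 4, and the log2 fold change was 0.32 (SE 0.13, 95% interval 0.03 to 0.61, adjusted p = 0.23). *LBO* had 16.2, 17.9, 21.7 and 19.8 CPM in mock-treated Col-0, a log2 fold change under AMF of -0.02 with a 95% interval of -0.26 to 0.23. *D14* (0.18, interval -0.06 to 0.42) and *SMXL7* (0.14, interval -0.04 to 0.32) did not pass either.

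In the transgenic lines the AMF comparison called 0 of 4 measured genes, where 0.00605% of all tested genes were called in line 308 and 0% in line 310 (545 genes at an unadjusted p under 0.05, and 0 to 77 called by the other fits). In each line 1 of the 4 had an unadjusted p under 0.05. *LBO* had the lowest unadjusted p in both. In line 310 its level was 24.03, 30.5 and 22.5 CPM with AMF and 19.3, 17.7 and 18.2 CPM without. The groups did not overlap, and the log2 fold change was 0.48 (SE 0.14, unadjusted p = 0.00783, adjusted p = 1). In line 308, mock libraries had 15.1, 14.98, 14.3 and 18.2 CPM, and the change under AMF was 0.31 on the log2 scale (SE 0.11, unadjusted p = 0.0177, adjusted p = 0.486). The AMF response of *LBO* was larger than in Col-0 by 0.50 in line 310 (SE 0.18, adjusted p = 0.584) and by 0.33 in line 308 (SE 0.16, adjusted p = 0.666), neither past the threshold. In both interactions, 0 of the 4 measured genes and 0% of all genes were called (1233 and 1290 genes at an unadjusted p under 0.05 in line 308 and line 310, and 0 to 575 and 0 to 470 called by the other fits), while 1 of 4 in line 310 and 0 of 4 in line 308 had an unadjusted p under 0.05.

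Between genotypes on 1/2 MS, 0 of the 4 measured genes were called in any of 6 comparisons, also under every alternative tried. Line 308 against Col-0 called 1.95% of all genes under mock treatment and 6.63% with AMF, line 310 against Col-0 0.0121% and 0.0302%, and line 308 against line 310 0.109% and 0.605%. At an unadjusted p under 0.05 there was 1 measured gene for line 308 against Col-0 under mock treatment, and 2 each with AMF for line 310 against Col-0 and for line 308 against line 310. With AMF, *LBO* was higher in line 310 than in Col-0 by 0.46 on the log2 scale (SE 0.13, adjusted p = 0.33) and lower in line 308 than in line 310 (-0.40, SE 0.13, adjusted p = 0.335), with no overlap in either pair. These pairs share the line 310 libraries. *SMXL7* had its largest difference in the comparison of the lines with AMF, at 0.28 (SE 0.11, adjusted p = 0.465), where line 310 had 108, 108 and 100.3 CPM. For *SMXL6* with AMF, line 308 against Col-0 had a log2 fold change of 0.00 and a 95% interval of -0.25 to 0.25.

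**Figure D5:**
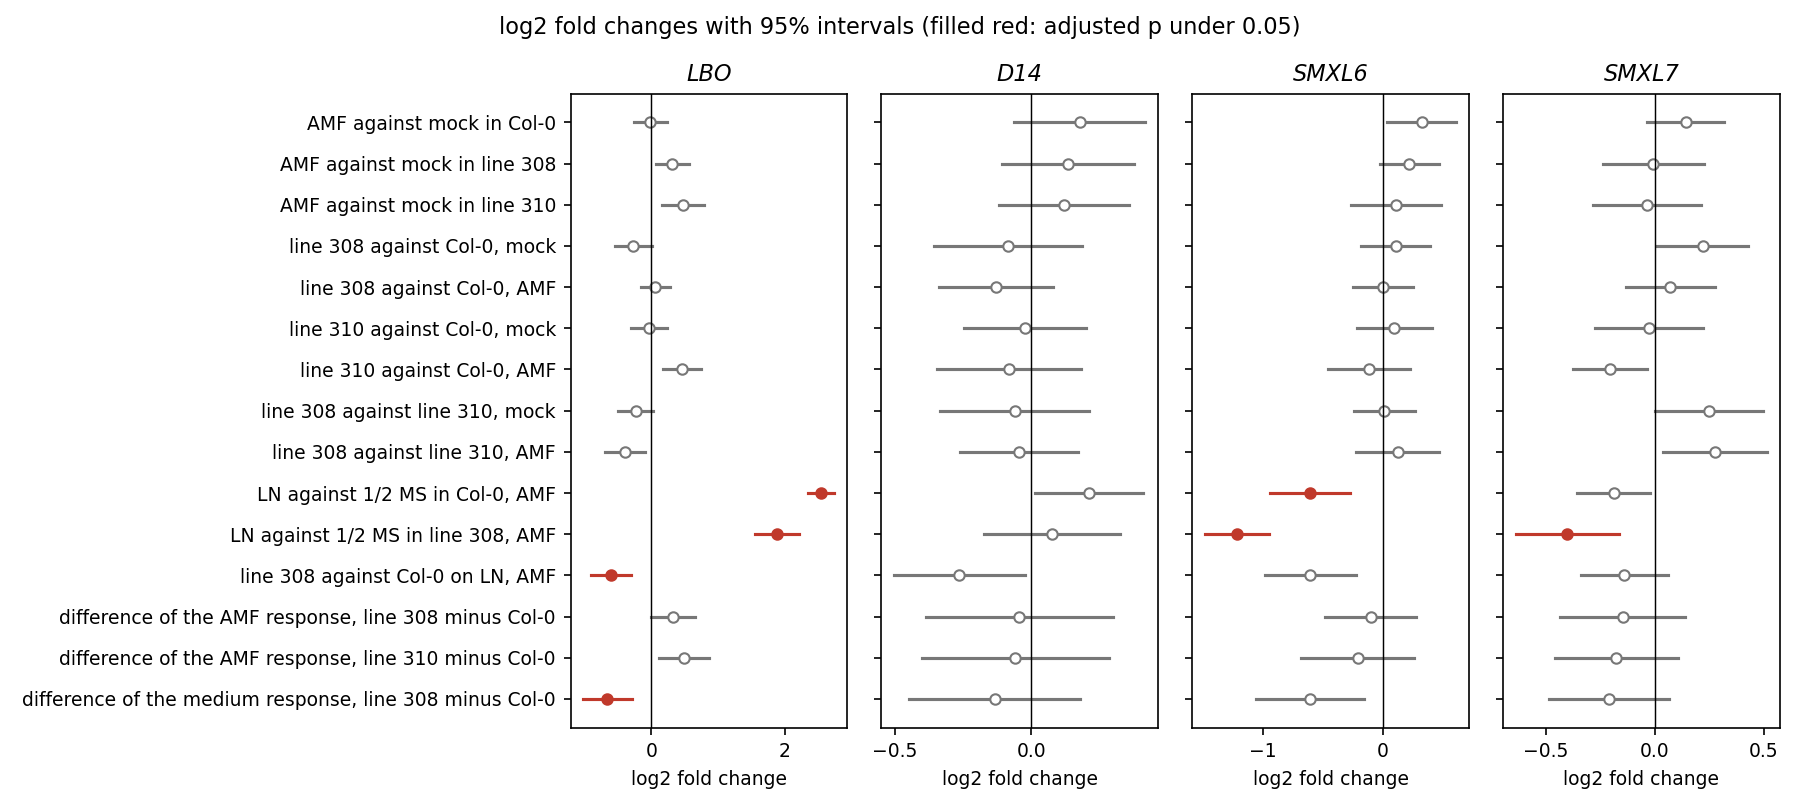
log2 fold change of the 4 measured genes with its 95% interval in the 15 comparisons (each panel has its own x axis). Filled red points mark an adjusted p under 0.05, which occurs in 7 of the 60 values, all of them in comparisons that involve LN.

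Ordered by group means, *LBO* was highest in Col-0 on LN, then line 308 on LN, then line 310 +AMF (25.7 ± 4.28 CPM, SD, n = 3), and each gap to the next group was larger than the pooled SD. The next 4 groups, from 19.5 to 18.4 CPM, did not differ beyond their spread, and mock-treated line 308 was lowest, by more than the pooled SD (15.7 ± 1.73 CPM, SD, n = 4). The order of *SMXL6* ran from 35.5 CPM in line 308 +AMF to 15.3 CPM in line 308 on LN, and neighbours on 1/2 MS did not differ beyond their spread. For *D14*, only Col-0 on LN (156 ± 10.1 CPM, SD, n = 5) stood apart from its neighbour, and the other 7 groups lay between 113 and 135 CPM. *SMXL7* group means spanned 96.7 to 128 CPM.

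Genes around the 9 members were taken from fixed lists. Between the media, 35.9% of all tested genes were called in Col-0 and 31.5% in line 308. The number of genes called on LN in each list therefore says little about that list. *MAX2*, the F-box gene that acts with D14, fell on LN in Col-0 (42.6 against 75.9 CPM, log2 fold change -0.83, SE 0.10, adjusted p = 7.43e-05) and in line 308 (38.3 against 52.2 CPM, -0.45, SE 0.10, adjusted p = 0.00755). With AMF on 1/2 MS it was lower in line 308 than in Col-0 (-0.54, SE 0.11, adjusted p = 0.014), as was *PAP1*, a MYB regulator of anthocyanin synthesis (-3.91, SE 0.78, adjusted p = 0.0142). Of the 11 other pathway genes listed, 5 could be tested, and 2 fell and 0 rose on LN in each genotype. The second was AT3G13840, annotated as a GRAS family transcription factor, at 3.33 against 8.31 CPM in Col-0. *BRC1* and *BRC2*, branching regulators of buds, were among the 6 not tested.

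The related karrikin pathway uses the D14 paralogue KAI2 and the repressors SMAX1 and SMXL2. A list of 8 genes held this branch together with the other *SMXL* genes *SMXL3*, *SMXL4* and *SMXL5*, and 7 of the 8 were tested. In Col-0 on LN, *SMAX1* (0.40, adjusted p = 0.0243) and *SMXL5* (0.44, adjusted p = 0.00625) rose and 0 fell. In line 308 *KAI2* rose from 73.8 to 113 CPM (0.62, adjusted p = 0.0055) and *SMXL2* fell by 0.29 on the log2 scale (adjusted p = 0.0118). The *SMXL* genes therefore had both signs on LN, with *SMXL6* lower and *SMXL5* higher in Col-0. Of 6 carotenoid synthesis genes, 3 could be tested, and 1 of them, the lycopene cyclase gene *LYC*, fell in both genotypes (-1.07 in Col-0 and -1.31 in line 308). Of 7 other carotenoid cleavage dioxygenases, 6 were tested, with 1 higher and 2 lower on LN in each genotype. *NCED5* rose and *NCED2* fell in both, and the other lower gene was *NCED9* in Col-0 and *CCD4* in line 308, all of them under 3 CPM. *CCD1* had 164 CPM in Col-0 on LN and 192 CPM on 1/2 MS (adjusted p = 0.0998).

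Among 14230 genes with a mean of at least 10 counts, those most like *LBO* over the 30 libraries in log2 CPM were AT3G49350 (Pearson's r 0.98), AT1G23140 (0.98) and *PLDP2* (0.98), which encodes a phospholipase D. These values largely restate the step between the media, since within the 22 libraries from 1/2 MS they were 0.51, 0.52 and 0.40. For *SMXL6* they were *PSY1R* (0.94), *ATLIG4* (0.94) and AT3G30390 (0.93), with 0.75, 0.88 and 0.76 within 1/2 MS. For *D14* the closest was AT1G27150 (0.81) and for *SMXL7* it was *PHB* (0.81), a leaf polarity gene. The points share libraries and depth, and the values are descriptions.

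The upstream sequences of *LBO* and *SMXL6* are given because these genes moved in opposite directions between the media. They were read from the reference genome, where all 9 members have the same start and end as in the count tables. Each window holds the 250 bases before the annotated start.

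*LBO* upstream (TAIR10, chr3:7541134-7541383, plus strand): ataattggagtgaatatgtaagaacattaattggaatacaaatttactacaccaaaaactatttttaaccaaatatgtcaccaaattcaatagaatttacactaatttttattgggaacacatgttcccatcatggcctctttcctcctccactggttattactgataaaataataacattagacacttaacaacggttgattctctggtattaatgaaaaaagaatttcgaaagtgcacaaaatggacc

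*SMXL6* upstream (TAIR10, chr1:2212719-2212968, minus strand): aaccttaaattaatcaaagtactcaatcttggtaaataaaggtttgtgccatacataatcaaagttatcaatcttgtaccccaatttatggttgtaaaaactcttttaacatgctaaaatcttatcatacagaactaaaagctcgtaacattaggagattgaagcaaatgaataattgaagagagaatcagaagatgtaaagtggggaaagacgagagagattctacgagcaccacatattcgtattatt

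The letters searched were GNATATNC, known as P1BS, the site bound by the phosphate response regulator PHR1, which reads the same on both strands. Neither window held a match, nor did the 250 or the 1000 bases upstream of any of the 9 members. Of all genes, 5.26% had a match within 250 bases and 19.7% within 1000, and of the 11 phosphate starvation markers 3 and 8 did. This says only that these letters are not in these windows.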

How the data were processed

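Roots of 30 Arabidopsis libraries were analysed here, and the 14 Lotus libraries were not. Per the file headers, the authors counted strand-specific read pairs per Araport11 transcript with featureCounts 2.0.1 (reverse strand, no multiple overlap), and they deposited raw counts. For the alignment the sources differ: the study's methods name BBSplit, to separate plant from fungal reads, and edgeR, whereas GEO's processing notes name FastQC, HISAT2, featureCounts, DESeq2 and TAIR10. Which alignment gave these counts is not settled here. Counts of the IPD3Min transgene were not analysed here. Transcript counts were summed per gene and tested with edgeR 4.0.16 in R 4.3.3, by the quasi-likelihood test with TMM scaling over the 30 libraries, for the 16540 genes that reached 10 counts in any library. Each comparison was fitted on its own groups, interactions on 4 groups, and p-values were adjusted by Benjamini-Hochberg over all tested genes (threshold 0.05). CPM are counts scaled to a common total of the TMM-adjusted library size. Replicate libraries differed by 5.64 to 38.6 times the sampling noise (chi-square per degree of freedom, 43 pairs). The members and gene lists were chosen with earlier results of these data known. All members are named, from each other list the counts are given and at most 4 genes a comparison are named, those with the smallest adjusted p or whose role the comparison turns on, and the 3 genes most like each member are drawn on for likeness. Alternatives were DESeq2 1.42.0, no TMM, no filter, single transcripts, a common dispersion likelihood-ratio test, a fit on all 8 groups, a replicate block, the form of the library name, and leaving out each library. In simulated data of 16540 genes, 100 genes were changed 2-fold and 100 were changed 4-fold, drawn from genes with a mean of at least 10 counts. The comparison of media in Col-0 recovered 68% of 2-fold and 96% of 4-fold changes, with 7 false calls. The interaction of medium and genotype recovered 52% and 86%, also with 7. In the real data the comparison of media in Col-0 called 5932 genes, so these shares do not describe what it could recover.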

Additional observations from a re-analysis of the deposited data

Results flagged for a closer look

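The response of *LBO* to the medium differed between the genotypes by the interaction test, with a log2 fold change of 2.55 in Col-0 and 1.89 in line 308 and a difference of -0.66 (edgeR's quasi-likelihood test, adjusted p = 0.0353). The adjusted p ranged from 0.0133 to 0.0424 over the alternatives that kept all libraries and from 0.0154 to 0.0806 when each library was left out. Of 20 sets of 4 or 5 replicate values of the measured genes, 0 held a value that stood apart by Dixon's criterion, where chance gives about 1 in 20.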

How the results depend on the processing

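Of 980 alternative values of a member's log2 fold change, 950 kept their side of the threshold, 19 no longer passed and 11 newly passed. Among values that passed in the main or the alternative fit, 0 changed sign. Signs did change among values that passed in neither, such as *LBO* under AMF in Col-0 (-0.02, and -0.08 to 0.06 when each library was left out). Over all 8 groups, the common dispersion test called 2 members in place of 4. For line 308 against Col-0 on LN, 2 members in place of 1 passed with DESeq2, with no filter on low counts, with the common dispersion test and with the fit on all 8 groups, and leaving out each library gave 0 to 2. For the difference of the medium response, leaving out each library gave 0 to 2 members. The replicate numbers were not taken to pair the libraries, since in no comparison did the deviations of every same-numbered pair correlate at over 0.1 (in LN against 1/2 MS in Col-0 the pairs lay between 0.04 and 0.09), and the replicate block called 2 members in place of 1 in both of these comparisons (*SMXL6*, adjusted p = 0.00714 and 0.0151). The cause was not tested.

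Counts over all genes depended more on the fit. AMF in Col-0 called 145 genes, 87 to 1353 with other settings and 3 to 916 with a library left out. In the same order, line 308 against Col-0 called 322, 316 to 1487 and 105 to 650 under mock treatment, 1096, 969 to 1904 and 580 to 1618 with AMF, and 1424, 928 to 3342 and 255 to 4153 on LN. The medium interaction called 899, 786 to 2445 and 415 to 2699. AMF in line 308 called 1, 0 to 159 and 0 to 4. The comparisons with line 310 called 0 to 100 genes and at most 691 with other settings. The counts of LN against 1/2 MS stayed within 1.5 times. For the 5 members with at most 2 counts in a library, depth, low expression and the counting rule cannot be told apart.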
